A study of Mus musculus with 31 samples.

Results

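The 39 genes described here encode the machinery of DNA replication: the 6 subunits of the origin recognition complex (Orc1 to Orc6), the licensing factors Cdc6 and Cdt1 and their inhibitor Gmnn, the 6 subunits of the MCM2-7 helicase, the factors that activate it (Cdc45, Gins1 to Gins4 and Mcm10), the DNA polymerases and primase (Pola1, Pola2, Prim1, Prim2, Pole and Pold1), the sliding clamp and its loader (Pcna and Rfc1 to Rfc5), the Okazaki fragment enzymes Fen1 and Lig1, and 4 enzymes of deoxynucleotide supply (Rrm1, Rrm2, Tyms and Tk1). They were taken by name from the 21938 protein-coding genes that GENCODE places on chromosomes 1 to 19, X and Y of mm10, by function and not by a threshold on the peaks. The data are ATAC-seq peaks called in a single library from the parental NIH-3T3 line, immortalised mouse embryonic fibroblasts that carry no TF transgene. ATAC-seq marks accessible DNA by letting the transposase Tn5 cut and tag it. The other 30 samples of the series, 2 for each of 13 overexpressed TFs and 4 controls that express rtTA3G alone, were not analysed here. The methods describe 500 ng ml-1 of doxycycline for 48 h before ATAC-seq, but no label of the parental sample mentions it. No synchronisation of the cell cycle is described for this library. NIH-3T3 cells carry an abnormal number of chromosomes, and the copy number of each gene was not measured here.

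Before S phase, ORC, Cdc6 and Cdt1 load MCM2-7 onto origins, and geminin, the product of Gmnn, blocks Cdt1 once replication has begun. Cdc45 and GINS then turn MCM2-7 into the active helicase, primase and polymerase alpha start each strand, and polymerases epsilon and delta extend it on the PCNA ring that the Rfc loader places on DNA. Many of these genes are known targets of E2F transcription factors, which the RB family of proteins holds inactive in resting cells and which bind a short G/C-rich sequence near the transcription start site (TSS) of S-phase genes.

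A gene was called open when at least 1 of the 63456 peaks of the library lay within 1 kb of any of its annotated TSSs. All 39 replication genes were open, against 11788 of 21938 protein-coding genes (53.7%). Promoters rich in CpG dinucleotides are open more often, and 30 of the 39 replication genes had such a promoter, defined as an observed/expected CpG ratio of at least 0.6 and a GC content of at least 55% in the 500 bp centred on the main TSS. Of all CpG-rich protein-coding genes 8373 of 10238 (81.8%) were open, and of the CpG-poor ones 29.2%. The 9 replication genes with a CpG-poor promoter (Mcm7, Cdc45, Gins3, Mcm10, Prim1, Lig1, Rrm1, Tyms and Tk1) were open as well. CpG-poor here means that either limit was missed. Cdc45, Gins3, Prim1 and Rrm1 met the limit of the ratio (0.877, 0.801, 0.723 and 0.907) and missed only that of GC content. The highest peaks of Mcm10 and Lig1 did not reach the main TSS on which the window was centred. A gene without a peak is not shown to be closed, since the lowest peak of the list rested on 10 fragments. As a check of the cell type, all 11 fibroblast marker genes were open (among them Col1a1, Thy1 and Prrx1). Of 10 markers of other cell types 8 had no promoter peak, among them Ptprc, Cd3e, Epcam and Alb. The other 2, Cdh5 and Pecam1, were open with a median fold enrichment of 10.6, above the 6.62 of the fibroblast markers. Both of their summits lay more than 300 bp from the nearest TSS. A promoter peak shows accessibility and not expression.

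The promoters of 7 replication genes are printed first, because they hold an E2F sequence within the stretch that ends 30 bases after the main TSS. The letters searched were TTNNCGC, with C or G at each N, on both strands, and they stand in capitals below, where a match on the other strand reads as its reverse complement. Each stretch is given 5′ to 3′ on the strand of its gene, from 120 bases before the main TSS, in the RefSeq sequence of GRCm38, the build that mm10 names. Positions count the first transcribed base as 1, with no base 0. The stretches lie at chr4:34614915-34615064 (minus strand), chr8:122567895-122568044 (plus), chr1:20820283-20820432 (minus), chr2:150909474-150909623 (plus), chrX:93632126-93632275 (minus), chr16:23127708-23127857 (minus) and chr7:102441575-102441724 (plus).
Orc3: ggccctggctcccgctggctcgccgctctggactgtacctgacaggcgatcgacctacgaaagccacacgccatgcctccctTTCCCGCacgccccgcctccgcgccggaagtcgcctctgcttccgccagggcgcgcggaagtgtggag
Cdt1: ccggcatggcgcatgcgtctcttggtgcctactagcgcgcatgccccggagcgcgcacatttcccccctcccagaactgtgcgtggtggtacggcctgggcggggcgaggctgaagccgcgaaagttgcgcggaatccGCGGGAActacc
Mcm3: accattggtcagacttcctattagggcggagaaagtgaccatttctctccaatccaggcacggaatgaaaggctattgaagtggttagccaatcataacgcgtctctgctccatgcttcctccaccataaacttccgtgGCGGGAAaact
Gins1: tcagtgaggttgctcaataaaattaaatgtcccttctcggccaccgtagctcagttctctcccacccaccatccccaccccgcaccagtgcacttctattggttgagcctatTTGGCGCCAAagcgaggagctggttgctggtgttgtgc
Pola1: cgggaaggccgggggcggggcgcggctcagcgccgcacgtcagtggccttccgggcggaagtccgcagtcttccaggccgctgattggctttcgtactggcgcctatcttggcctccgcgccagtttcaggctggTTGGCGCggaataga
Rfc4: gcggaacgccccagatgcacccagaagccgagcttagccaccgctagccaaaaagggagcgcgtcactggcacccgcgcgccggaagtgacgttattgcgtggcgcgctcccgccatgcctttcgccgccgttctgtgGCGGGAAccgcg
Rrm1: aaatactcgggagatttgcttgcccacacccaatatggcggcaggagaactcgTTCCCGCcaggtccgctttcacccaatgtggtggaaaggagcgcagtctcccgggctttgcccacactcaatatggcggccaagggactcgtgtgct
The match began at base -38 in Orc3, at -67 in Rrm1, and after the TSS in Cdt1 (19), Mcm3 (20), Pola1 (16) and Rfc4 (19). In Gins1, 2 matches on opposite strands overlapped across the TSS and read as a single run of capitals. Further matches of Cdt1, Mcm3 and Pola1 did not lie wholly within the printed stretches. That of Pola1 at -121 begins just before its stretch, so its remaining bases open the line in lower case.

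Orc2 and Lig1 had folds among the 3 highest of the 39 without an E2F sequence at their main TSS, and their stretches serve as the contrast. That of Orc2 lies at chr1:58505080-58505229 (minus strand). Lig1 is shown at its main TSS, chr7:13277193-13277342 (plus strand), and again at chr7:13278706-13278855, the same strand, at the TSS nearest to the summit of its peak. The second Lig1 stretch was added after the values were seen.
Orc2: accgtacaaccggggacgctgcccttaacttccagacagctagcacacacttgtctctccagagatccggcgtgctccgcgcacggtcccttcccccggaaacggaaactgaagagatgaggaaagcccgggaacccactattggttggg
Lig1, main TSS: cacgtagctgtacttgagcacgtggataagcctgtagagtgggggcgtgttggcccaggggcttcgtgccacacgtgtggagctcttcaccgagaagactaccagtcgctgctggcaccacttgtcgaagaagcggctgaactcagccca
Lig1, TSS nearest the summit: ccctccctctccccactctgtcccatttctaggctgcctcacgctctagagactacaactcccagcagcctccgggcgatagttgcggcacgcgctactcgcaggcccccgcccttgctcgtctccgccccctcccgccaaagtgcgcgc
The peak of Lig1 did not reach the main TSS, and at the TSS nearest the summit the first E2F match began at base 27 and ran past the end of the printed stretch, with another at base 43. In Lig1, therefore, the choice of the TSS set whether the letters were counted.

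The height of a peak is its fold enrichment, the ratio of the fragments at the summit to the fragments expected there, each with 1 added. Where a gene had several promoter peaks, the highest fold was used. Over the 39 genes the median fold was 12.4 (quartiles 9.86 and 14.8), against 9.86 (7.27 and 12.4) over the 11788 open protein-coding genes. Over the open CpG-rich ones alone it was 10.2 (7.85 and 12.6). Of the 39, 29 lay above the median of the open genes and 21 above their upper quartile, which 25% of open genes exceed by definition, while 6 lay below the lower quartile. The number of fragments at the summit was 85 in the median (quartiles 64.5 and 109.5) against 64 (42 and 89), and the expected number was 5.77 against 5.51. By fragments, 29 of the 39 lay above the median of the open genes but only 14 above their upper quartile. The open CpG-rich genes had a median of 68 fragments. With 1 library there is no replicate error. Each interval below is an exact Poisson 95% interval of the fragments at the summit, carried over to the fold, and it covers counting error only.

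**Figure D1:**
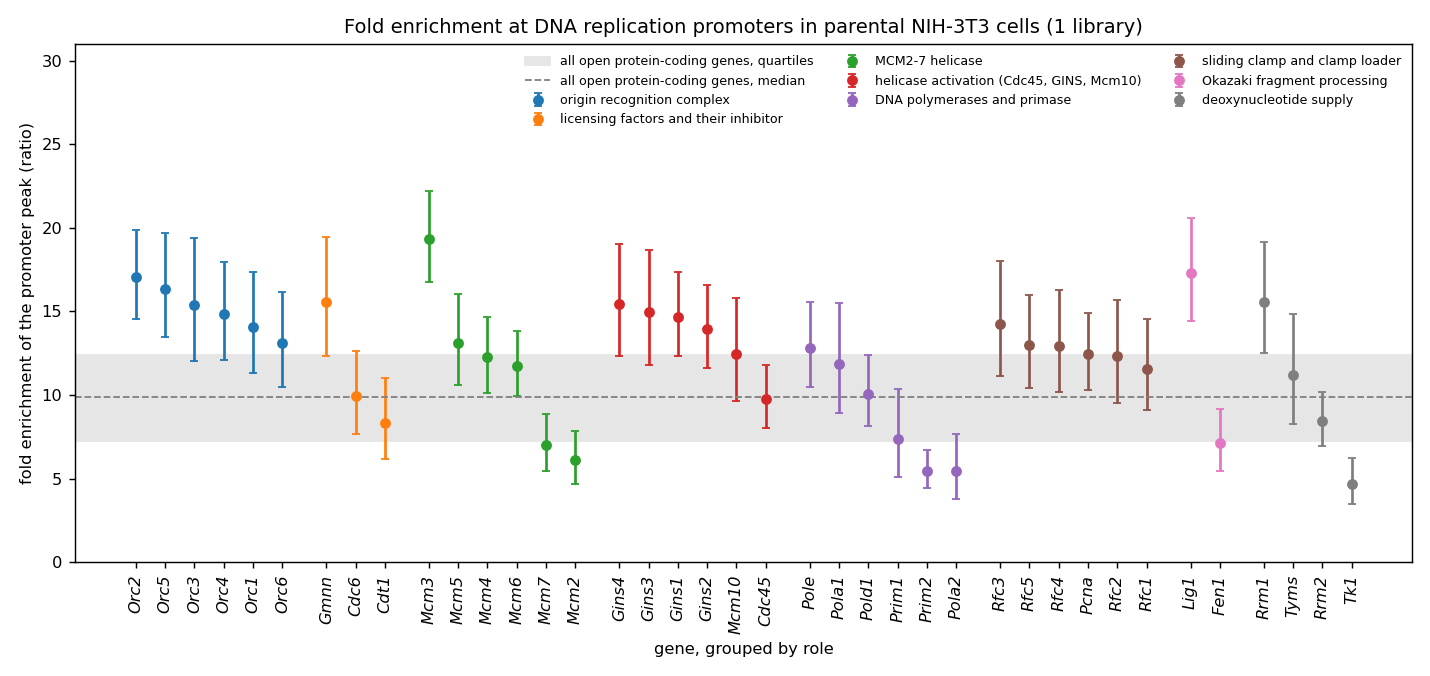
Fold enrichment (ratio) of the highest promoter peak of each of the 39 replication genes, grouped by role and ordered within it; points are the values of the 1 library and bars are 95% Poisson intervals of the summit fragments. The dashed line is the median of all open protein-coding genes (9.86) and the grey band their quartiles; all 6 ORC genes lie above the band, and Tk1 is the lowest point at 4.70.

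All 6 genes of the origin recognition complex, which marks the sites where replication can start, had folds above the upper quartile of the open genes. Their folds ran from 13.1 in Orc6 to 17.0 in Orc2, with a median of 15.1. The peak of Orc2 at chr1:58504567-58505396 rested on 164 fragments (interval of the fold 14.5 to 19.8), and its summit lay 56 bp downstream of the TSS, in the first exon. Orc5 followed with a fold of 16.3 and Orc3 with 15.4, on 109 and 69 fragments. Orc4 and Orc1 had folds of 14.8 and 14.1. By fragments, Orc2, Orc5 and Orc4 (102) exceeded the upper quartile of the open genes, 89, while Orc1 (87), Orc6 (85) and Orc3 did not. The counting intervals of all 6 overlapped.

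The licensing group was spread wider. Gmnn, whose product inhibits Cdt1, had a fold of 15.6 (12.3 to 19.5) on 76 fragments at chr13:24761324-24762237. Cdc6, the ATPase that joins ORC to load the helicase, had a fold of 9.93 on 63 fragments, close to the median of the open genes. Cdt1, which brings MCM2-7 to the origin, had the lowest of the 3 at 8.34 (6.19 to 11), on 48 fragments. The intervals of Gmnn and Cdt1 did not overlap. The summit of the Cdt1 peak (chr8:122567296-122568232) lay at -509 bp from the nearest TSS, although the peak reached 217 bp past that TSS.

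The 6 helicase subunits, which are present in the complex in equal numbers, had widely spread folds. Mcm3 had the highest fold of all 39 genes, 19.3 (16.7 to 22.2), on 197 fragments at chr1:20819909-20820729, which placed it above 99.3% of the open protein-coding genes. Mcm5, Mcm4 and Mcm6 had folds of 13.1, 12.3 and 11.8. Mcm7 and Mcm2 had 7.0 (5.45 to 8.86) and 6.10 (4.66 to 7.85), and neither interval reached those of the other 4 subunits. The summit fragments gave a different order. Mcm6 had 145 fragments, the third highest count of the 39, and its fold was held down by an expected number of 11.4. Mcm2 with 58 and Mcm7 with 67 fragments stood near the median of 64 of the open genes, and their expected numbers were 8.67 and 8.72.

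Among the genes for helicase activation the folds were high and close together in Gins2, Gins3 and Gins4, from 13.9 in Gins2 to 15.4 in Gins4. Gins4 rested on 85 fragments at chr8:23237283-23237991 (interval of the fold 12.4 to 19). Gins3 had a fold of 14.9. Mcm10, which helps to switch the loaded helicase on, had 12.4, and Cdc45 had 9.78 although 110 fragments lay at its summit, with 10.3 expected.

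Gins1 needs a separate account. Its highest peak, with a fold of 14.7 and 135 fragments at chr2:150904160-150905129, lay over a TSS of Abhd12, a lipase gene on the other strand, and ended upstream of the nearest TSS of Gins1, at -271 bp. Its summit lay at -4890 bp from the main TSS of Gins1. At the main TSS a second peak, chr2:150909475-150909968, had a fold of 10.5 on 78 fragments, and its summit was 221 bp past the main TSS. The stretch of Gins1 printed above, with the paired E2F matches, lies under this second peak except for its first base.

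The polymerase and primase genes had the lowest median of the 8 roles, 8.74. Pole, the catalytic subunit of the leading-strand polymerase, was their highest with 12.8 (10.5 to 15.6) at chr5:110285725-110286820. Pola1, the catalytic subunit of polymerase alpha and the only one of the 39 genes on chromosome X, had 11.9 on 52 fragments. Pold1, the catalytic subunit of polymerase delta, had 10.1 on 89 fragments. The other 3 are partners in the same primase complex as Pola1, and all were lower. Prim1, the small primase subunit, had a fold of 7.39 on 32 fragments. Pola2, the accessory subunit of polymerase alpha, had 5.47 (3.79 to 7.65) on 32 fragments at chr19:5963846-5964548, the second lowest fold of the 39. Prim2, the large primase subunit, had 5.48 (4.41 to 6.73) at chr1:33669519-33670580, but its summit held 89 fragments, above the median of the replication genes. The expected number there was 15.4, the highest among the 39, against 5.04 at Pola2. Pola2 and Prim2 thus had nearly the same fold from different numbers of fragments.

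The clamp and its loader formed the tightest group. Their folds ran from 11.6 in Rfc1 to 14.3 in Rfc3, and all intervals overlapped. Rfc3 rested on 68 fragments at chr5:151650930-151651522 (interval of the fold 11.1 to 18). Pcna, the ring that holds the polymerases on DNA, had 12.4 on 116 fragments. The loader subunits Rfc5, Rfc4 and Rfc2 had folds of 13.0, 12.9 and 12.3.

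The enzymes that finish the lagging strand differed. Lig1, the ligase that seals Okazaki fragments, had the second highest fold of the 39 with 17.3 (14.5 to 20.6) at chr7:13278291-13279348. This peak also covered a TSS of Zswim9, a gene on the other strand, and when each peak was given only to the gene with the nearest TSS it was no longer counted for Lig1. Fen1, the nuclease that trims the flaps between fragments, had a fold of 7.12 (5.45 to 9.15) on 59 fragments.

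Among the genes of deoxynucleotide supply, Rrm1 and Rrm2 encode the large and small subunits of ribonucleotide reductase and differed in fold. Rrm1 had 15.5 (12.5 to 19.1) on 87 fragments at chr7:102441502-102442244. Rrm2 had 8.45 (6.97 to 10.2), but on 111 fragments, with 12.2 expected against 4.66 at Rrm1. For this pair the order by fragments was thus the opposite of that by fold. Tyms, thymidylate synthase, had a fold of 11.2 on 46 fragments over the lowest expected number of the 39, 3.20. Tk1, which salvages thymidine in S phase, had the lowest fold of all, 4.70 (3.48 to 6.21), on 47 fragments at chr11:117825462-117826450, with 9.22 expected.

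Counting error left the order of the 39 folds open between neighbours, at its ends too. In each of the 38 neighbouring pairs the intervals overlapped, 12 other genes overlapped Mcm3 at the top, and 7 overlapped Tk1 at the bottom. Differences between genes further apart, such as Mcm3 against Mcm2, exceeded counting error.

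Promoter peaks of replication genes were 914 bp wide in the median (quartiles 693.5 and 1051), against 796 bp (568 and 1027) over all open protein-coding genes. Over the open CpG-rich genes the median was 853 bp. With the main TSS only, the medians of replication genes and all open genes were 858 and 815 bp. Where the peak had to overlap a TSS they were 858 and 830.5 bp, so the difference was small. The widest was that of Mcm7 with 1584 bp (chr5:138170891-138172474), followed by Fen1 with 1435 bp (chr19:10203691-10205125) and Rrm2 with 1433 bp (chr12:24707482-24708914). All 3 had folds below the median of the open genes. The narrowest were Mcm2 with 397 bp (chr6:88898486-88898882), Mcm10 with 483 bp (chr2:5012514-5012996) and Prim1 with 522 bp (chr10:128015107-128015628). Of the 39, 11 were above the upper quartile of width and 5 below the lower quartile.

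**Figure D2:**
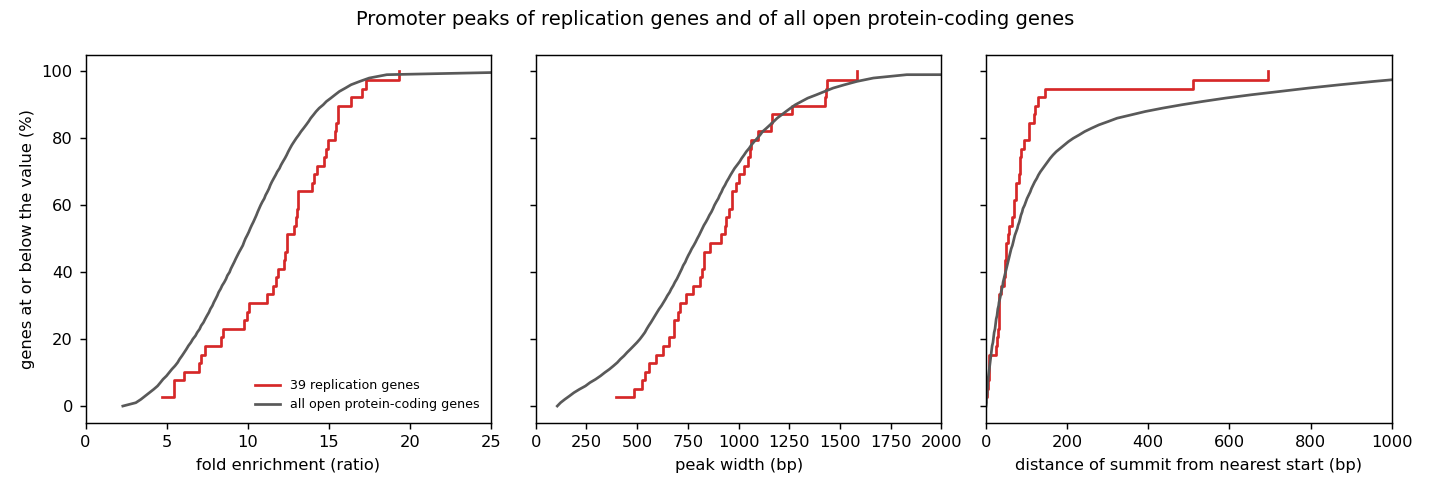
Cumulative share (%) of genes at or below each value of fold enrichment, peak width (bp) and distance of the summit from the nearest TSS (bp), for the 39 replication genes (red steps) and all 11788 open protein-coding genes (grey line). The red steps lie to the right of the grey line over most of the fold axis (medians 12.4 and 9.86), run close to it for width (914 and 796 bp), and rise earlier for the summit distance, with 37 of 39 genes within 150 bp.

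The summits sat close to the annotated TSSs. In 37 of the 39 genes (94.9%) the summit lay within 150 bp of the nearest TSS of the gene, against 72.7% of open protein-coding genes, and the median distance was 54 bp against 69 bp. The share was 77.4% of the open CpG-rich genes. It was 87.1% in the list of 31 other replication factors described below, whose median distance was 36 bp. These values rest on the nearest of several annotated starts. Of the 39 summits, 29 lay within 150 bp of the main TSS, a count that was not made over all genes. With the main TSS only, the median distances were 78 and 87 bp. Where the peak had to overlap a TSS they were 54 and 55 bp, so the difference in the median was nearly gone. In 28 of the 39 (71.8%) it lay upstream, close to the 69.1% of all open genes. The median signed position was -48, against -37. The exceptions beyond 300 bp were Cdt1 at -509 and Gins1 at -696. By annotation, 18 summits lay upstream of the gene, 19 in an untranslated or noncoding exon and 2 in an intron, those of Orc4 and Lig1. In 38 of the 39 genes (97.4%) the highest peak covered a TSS of the gene, against 87.4% of all open genes and 92.9% of the open CpG-rich ones. Among the 31 other replication factors all did.

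**Figure D3:**
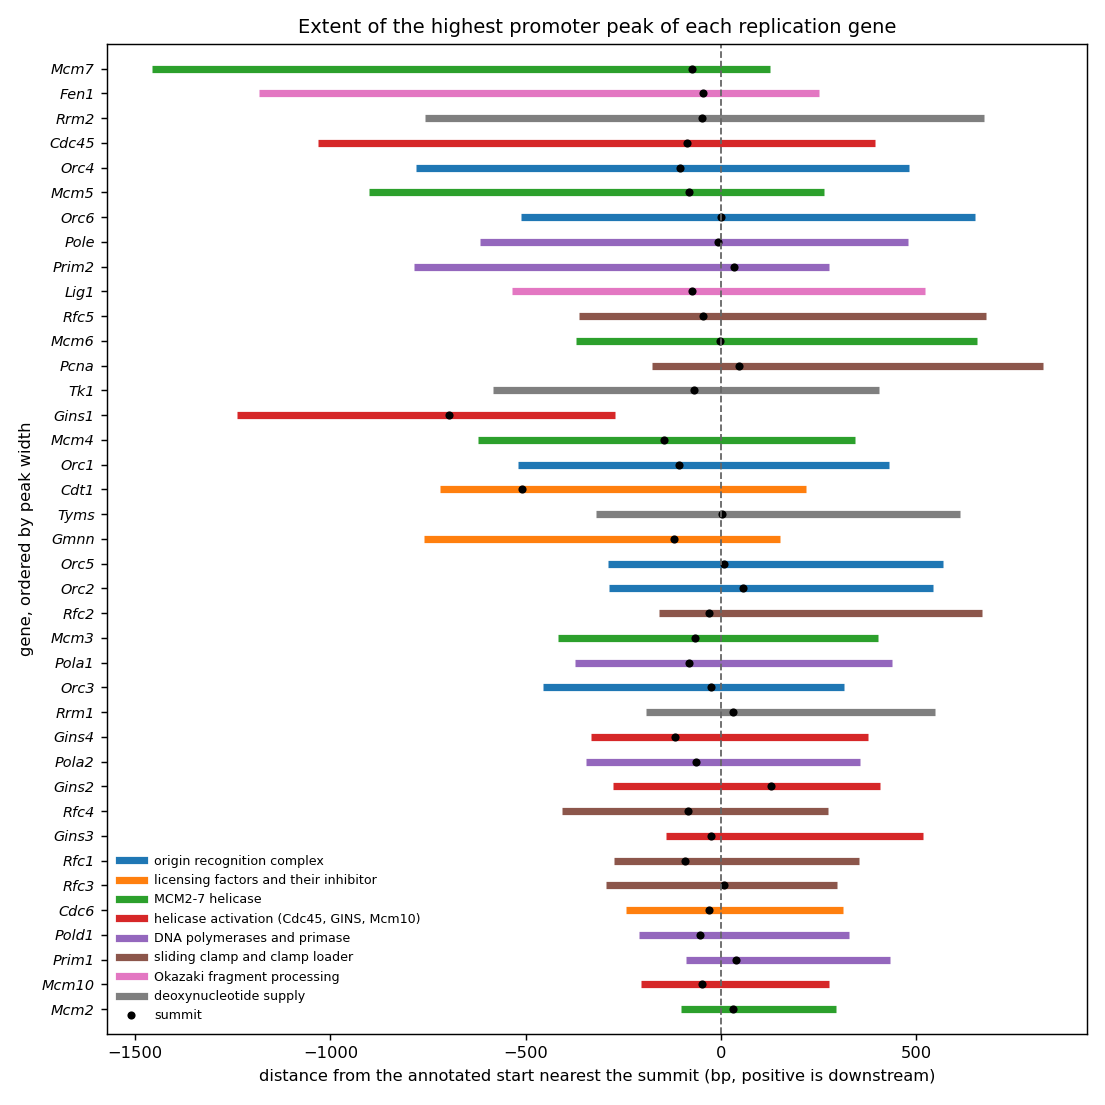
Extent of the highest promoter peak of each replication gene (coloured bars, by role) and its summit (black dots) in bp from the annotated TSS nearest the summit, with genes ordered by peak width. Summits cluster just upstream of 0, the bars of Mcm7 and Fen1 reach over 1 kb upstream, and that of Gins1 ends before the TSS.

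Against the main TSS alone, 7 summits were more than 300 bp away, a count that was not made over all genes. Those of Cdc6 (-381), Cdt1 (-509), Mcm10 (-495) and Gins1 (-4890) lay upstream, and those of Gmnn (326), Mcm7 (1330) and Lig1 (1438) downstream. All but those of Cdt1 and Gins1 lay within 150 bp of another annotated TSS of the same gene: the positions were -31 in Cdc6, -48 in Mcm10, -121 in Gmnn and -75 in both Mcm7 and Lig1, always upstream. In these 5 genes the summit thus lay nearer to a start other than the one that annotation ranks as principal, although the peaks of Gmnn and Mcm7 covered the principal start as well.

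More than 1 promoter peak was found at 8 of the 39 genes (20.5%), against 24.1% of all open genes. Apart from Gins1, the extra peaks were low. At Rrm2 the second peak (chr12:24706846-24707331) had a fold of 5.26 on 70 fragments and its summit lay at -1269 bp. At Tk1 it had 3.82 on 38 fragments, 1287 bp inside the gene from the main TSS, and at Cdt1 3.08 on 17 fragments, at -941 bp. The remaining 4 lay at internal starts far inside the gene: Mcm2 (fold 3.33, 22 fragments, 5023 bp from the main TSS), Mcm7 (2.68, 17 fragments, 6601 bp), Prim2 (4.27, 16 fragments, 47881 bp) and Rfc4 (3.94, 14 fragments, 12826 bp).

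Many replication promoters were shared with a neighbour. In 16 of the 39 genes (41.0%) another gene on the opposite strand started within 1 kb upstream of the main TSS, against 14.1% of all protein-coding genes and 23.3% of the CpG-rich ones. In 9 of them (23.1%) that gene was protein-coding, against 9.10% of all and 15.3% of the CpG-rich ones. The coding pairs were Orc1 with Prpf38a, Orc3 with Rars2, Orc4 with Mbd5, Orc6 with Vps35, Mcm4 with Prkdc, Mcm7 with Ap4m1, Cdc45 with Ufd1, Pole with Pxmp2 and Fen1 with Tmem258. The starts were 13 bp apart in Orc3 and Rars2, the arginyl-tRNA synthetase of mitochondria, and 466 bp apart in Mcm4 and Prkdc, the catalytic subunit of the DNA-dependent protein kinase. Each of the 6 ORC genes had such a neighbour, since Orc2 and Orc5 faced noncoding RNA genes at 39 and 57 bp.

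Because ATAC-seq fragments carry no strand, a peak between 2 divergent starts cannot be divided between them. The highest peak lay within 1 kb of a start of another gene in 20 of the 39 genes (51.3%), against 34.7% of open protein-coding genes. These 20 peaks had a median fold of 13.0 and a median width of 995 bp, and the 19 peaks near no other gene 11.8 and 709 bp. Over all open genes the same division gave folds of 10.4 and 9.54 and widths of 893 and 736.5 bp. The peaks near no other gene were therefore no wider in the median than those of other genes, while their median fold was higher.

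The E2F letters stood in the window from 250 bases before to 50 after the main TSS in 18 of the 39 genes (46.2%), against 12.1% of all protein-coding promoters and 21.1% of open CpG-rich ones. With 1 more T in front of the 7 letters, 13 of the 39 promoters (33.3%) still held a match, against 2.88% of all and 4.98% of the open CpG-rich ones. By role, a match of 7 letters was present in all 3 licensing genes, in 4 of the 6 helicase subunits (Mcm3 to Mcm6), in 3 of 6 ORC genes (Orc1, Orc3 and Orc4), in 3 of 6 polymerase and primase genes (Pola1, Prim1 and Pole), in Rfc3 and Rfc4 of the clamp group, in Rrm1 and Rrm2, and in Gins1 alone of the genes for helicase activation. Neither Fen1 nor Lig1 held one at the main TSS.

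Of the 34 matches, 17 (50%) lay within 50 bases of the TSS, against 38.8% of the matches in all promoters. Mcm6 held 5 matches, Mcm5 and Pola1 4 each and Mcm3 3. Among the 34, 10 overlapped another match, as pairs on opposite strands that began 3 bases apart in Mcm3, Mcm5, Mcm6 and Gins1. In 10 of the 39 genes (Orc3, Orc4, Gmnn, Mcm6, Pola1, Prim1, Pole, Rfc2, Rfc3 and Fen1) the letters lay in the window that reaches 50 bases to either side of the summit, against 7.43% of open protein-coding genes. A match is a run of letters and not a bound site, and its absence says nothing about E2F binding.

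**Figure D4:**
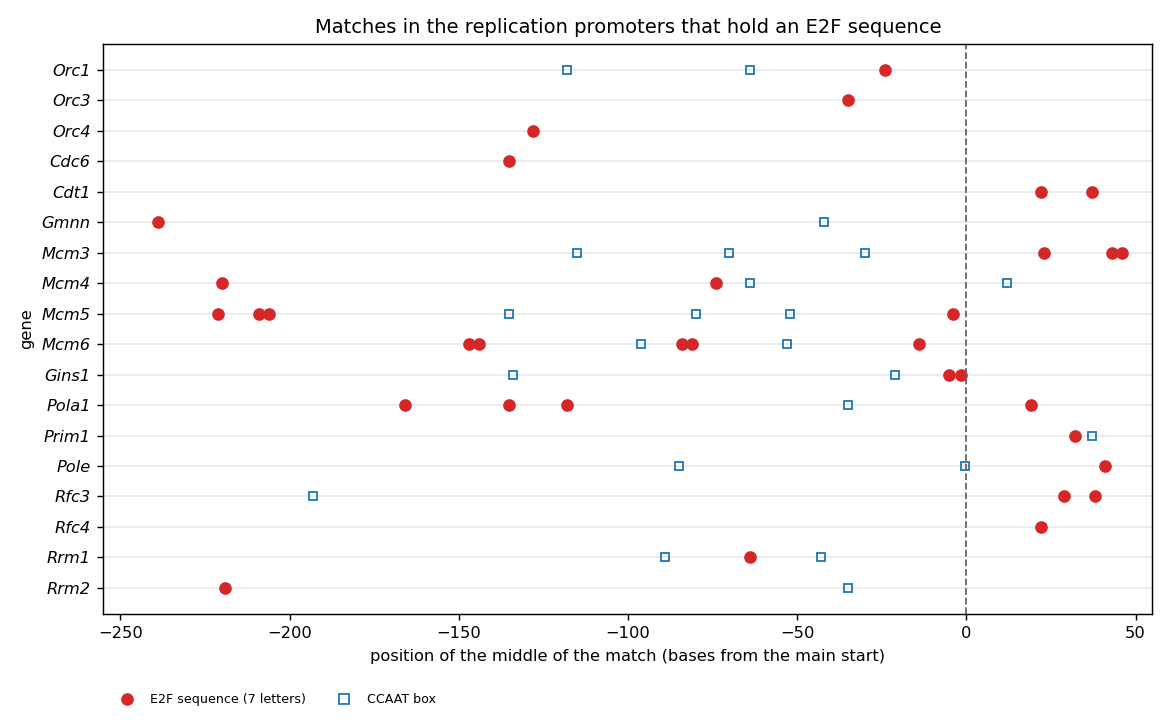
Positions, in bases from the main TSS, of the matches to the E2F letters (red dots) and the CCAAT box (open blue squares) in the 18 replication promoters that hold an E2F match; each row is a gene and the dashed line is the TSS. 17 of the 34 E2F matches lie within 50 bases of the TSS, and Mcm6 holds the most, with 5.

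Peaks with and without the letters had close medians. The 18 genes with a match had a median fold of 13.0 and a median of 87 summit fragments, and the 21 without had 12.3 and 85. Over all open protein-coding genes the median folds were 10.2 and 9.81. Mcm3, the highest of the 39, held 3 matches, while Lig1, Orc2 and Orc5, next in order, held none at the main TSS.

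Other promoter sequences were searched in the same window and on both strands. TATAAA was the exception, searched only on the strand of the gene and in the narrower stretch given below. CCAAT, the box bound by NF-Y, stood in 23 of the 39 promoters (59.0%), against 38.5% of all and 38.3% of the open CpG-rich ones. GGGCGG, the GC box bound by Sp1, stood in 25 (64.1%), against 45.4% of all promoters but 76.2% of the open CpG-rich ones, and it overlapped 1 of the E2F matches. TTTGAA, the core of the CHR element known from genes of mitosis, stood in 2 (Mcm2 and Cdc45, 5.13%), against 15.6% of all promoters and 8.93% of the open CpG-rich ones. CACGTG, the E-box, stood in 7 (17.9%, against 7.72% of all and 11.6% of the open CpG-rich ones). The NRF1 and CRE sequences, GCGCATGC and TGACGTCA, stood in 3 (7.69%, against 3.73% of all promoters and 6.64% of the open CpG-rich ones) and 2 (5.13%, against 2.48% and 4.16%). The AP-1 letters TGACTCA stood in none of the 39, against 4.47% of all promoters and 2.31% of the open CpG-rich ones, and none held TATAAA between 40 and 15 bases before the TSS, against 2.48% of all.

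**Figure D5:**
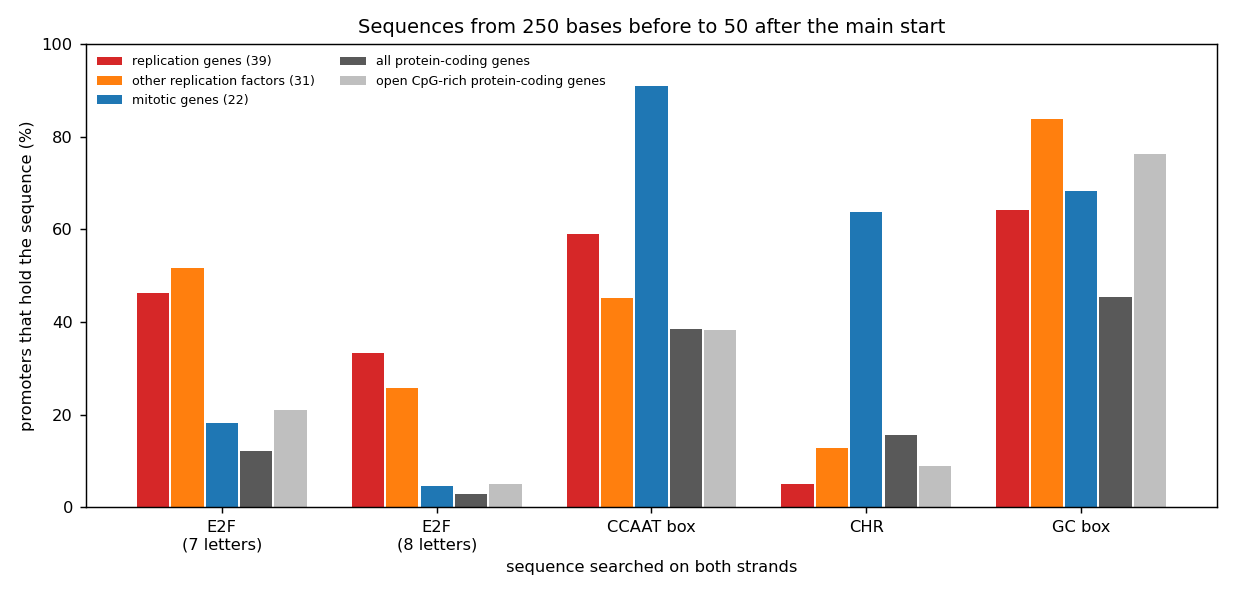
Share (%) of promoters that hold each sequence between 250 bases before and 50 after the main TSS, for the 39 replication genes (red), 31 other replication factors (orange), 22 mitotic genes (blue), all protein-coding genes (dark grey) and open CpG-rich ones (light grey). The E2F bars of both replication lists exceed those of the other sets (46.2% against 12.1% of all genes), and the CHR bar is high in the mitotic genes alone (63.6%).

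The rest of the pathway was described with 3 further lists. The first held 31 other replication factors, such as the RPA subunits, Cdc7 and Dbf4, and all 31 were open, with a median fold of 11.7 and E2F letters in 16 (51.6%). The second held 20 genes of the E2F, RB and G1/S kinase families, of which 19 were open, with a median fold of 9.97 and E2F letters in 8 (40%). The gene without a promoter peak was E2f6. The third held 22 genes of mitosis, of which 21 were open with a median fold of 12.0, and only Ccnb2, a mitotic cyclin, had no promoter peak. The mitotic genes had folds near those of the replication genes, but their promoter letters differed, with CCAAT in 20 (90.9%), the CHR core in 14 (63.6%) and the E2F letters in 4 (18.2%).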

How the data were processed

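ATAC-seq was done on 1 library of parental NIH-3T3 cells. According to the methods and the submitters' processing notes, the authors used STAR 2.5.3a to place read pairs on mm10, with unique alignments kept for chromosomes 1 to 19, X and Y. Duplicates were discarded by Picard, and whole fragments of this library alone were given to MACS2 2.1.1.20160309. A Tn5 shift of the fragment ends is not mentioned. Unique alignment can lower counts in repeats. For each peak the authors deposited a fold enrichment (a ratio), the −log10 p and −log10 q of a Poisson test at the summit, and a score derived from the q-value. All peaks had a q of 0.05 or below.

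Fragments and expected fragments at each summit were solved from fold and −log10 p; 99.9968% came within 0.02 of whole counts, and 100% of 2981 simulated summits were recovered. The median summit of the list held 29 fragments, and the background was 2.81. The read total of the library is not known here. The TSSs were those of GENCODE M21 transcripts. The main TSS was that of the coding transcript ranked by APPRIS, support level and length. The tools were pysam 0.24.0, SciPy 1.17.1, NumPy 2.4.6, matplotlib 3.10.9, pandas 2.3.3 and Python 3.11.15.

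With 1 library no test was made between samples or over genes. The members and lists were chosen with earlier results of these data known. Values are given in full for the 3 genes highest and lowest in fold, the 3 widest and narrowest, those with several promoter peaks or a summit over 300 bp from the nearest TSS, and the highest of each role. Other genes are named to complete a role, after their values were seen. Sequences were printed for the gene of highest fold in each role among those with a match wholly within the printed stretch, and for those of the 3 highest folds of all 39 that had no match. The alternatives were other thresholds of q and fold, distances, TSSs, measures of height, windows and letters, and CpG definitions.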

Additional observations from a re-analysis of the deposited data

How the results depend on the processing

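Of 48 recomputed values, 5 moved beyond the limits set for them (the 95% interval of a median or share, or a wider margin for counts), and they are given below with the counts. All 39 genes kept a promoter peak with a q of 0.01 or 1e-05, with a peak over the TSS, within 500 bp or 2 kb, with the main TSS only and with the summit in place of the interval. Under these settings 48.7% to 56.5% of all protein-coding genes were open. With a fold of at least 5 there were 38, without Tk1, against 48.8% of all protein-coding genes. When each peak was given only to the gene with the nearest TSS there were 34, against 47.2% of all protein-coding genes. This alternative, added after seeing the data, lost Orc1, Orc3, Cdc45, Fen1 and Lig1. Other measures of height were on other scales, with medians of 62.2 for −log10 q (41.9 over open genes) and 85 for summit fragments (64). Width fell to 709 bp for peaks near no other gene, below the 736.5 bp of such peaks at all open genes. The E2F letters, found in 18 genes in the window used above, stood in 10 genes within 50 bases of the summit. In the 500 bp at the main TSS they stood in 27 (19.4% of all protein-coding genes). At the TSS nearest the summit, an alternative also added later, they stood in 20 (17.7% of open protein-coding genes). With a CpG ratio of at least 0.75, 85.6% of CpG-rich genes were open. The counts at the summit limit the folds to the intervals given, and nothing here measures the spread between cultures.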

Other observations

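Away from TSSs, 11 of the 39 replication genes (28.2%) held peaks in the gene body, against 32.5% of all protein-coding genes. In these 11 genes, 21 peaks had their summit inside the gene and more than 1 kb from any TSS, or 0.153 per 10 kb of the length of all 39 genes, against 0.206 over all protein-coding genes. Of these 21 summits 17 lay in introns, 3 in untranslated or noncoding exons and 1 in a coding exon. Their median fold was 3.97, against 5.52 for the 21530 such peaks of all protein-coding genes, and their median width was 203 bp against 274 bp. The AP-1 letters, absent from the promoters of all 39 genes, stood at 3 of these 21 summits (14.3%), those in Orc6, Mcm6 and Pola2, against 26.8% of the gene-body peaks of all genes.

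In 3 genes a peak in the gene body was higher than the promoter peak of the same gene. Cdc45 held an intronic peak at chr16:18795208-18795961 with a fold of 13.1 on 165 fragments and another at chr16:18788944-18789638 with 12.6 on 98, while its promoter had 9.78 on 110. Pola2 held an intronic peak at chr19:5945015-5945692 with a fold of 10.7 on 111 fragments and a peak in a noncoding or untranslated exon with 5.71 on 26, against 5.47 on 32 at its promoter. Prim2 held 6 peaks in its introns, and 3 of them, with folds of 12.1, 10.3 and 5.95 on 77, 48 and 23 fragments, exceeded the 5.48 of its promoter peak, which held 89 fragments. Whether these peaks act on the genes that hold them was not tested.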
